A study of Mus musculus with 6 samples.

Results

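The PRDM family is a set of transcriptional regulators defined by a PR domain, a relative of the SET domain of histone methyltransferases, usually followed by zinc fingers that bind DNA. Some members methylate histones themselves, and others recruit enzymes such as Polycomb repressive complex 2 (PRC2). In the mouse embryo the family is best known for Prdm1 and Prdm14, which are required for primordial germ cells, and Prdm14 also guards the naive state of embryonic stem cells. Described here are 8 members, Prdm1, Prdm2, Prdm4, Prdm6, Prdm10, Prdm14, Prdm15 and Prdm16, taken by gene name from the 78298 genes of the deposited table. Each name matched 1 row.

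Poly(A) RNA was sequenced in 3 libraries of epiblast-like cells (EpiLCs), a culture state close to the epiblast just after implantation, and 3 libraries of embryonic stem cells (ESCs), which stand for the naive epiblast. Both groups were wild type and came from 1 mouse line, BVSC clone H18, so that the spread between libraries is within a single clone. No label gives the days of EpiLC induction or the culture medium. Lines called BVSC are known to carry fluorescent reporter transgenes built on regulatory sequences of Prdm1 and Dppa3. The labels do not describe these, and whether transgene reads entered the Prdm1 or Dppa3 values was not tested.

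Values are TPM, which divide reads by transcript length and bring every library to a total of 1000000, so levels of different genes can be set side by side. TPM keeps no depth, and the number of reads behind a value is unknown. Differences were taken as EpiLC minus ESC after a log2(TPM + 1) transformation, and the added 1 makes changes of weak genes look smaller than they are. Adjusted p-values are from limma over the 14036 genes with a mean of at least 1 TPM, with Benjamini-Hochberg adjustment and a threshold of 0.05. The libraries are called biological replicates without saying how cultures were separated, so the p-values rest on the spread among these 6 libraries. In bulk RNA, fewer cells expressing a gene and less RNA per cell cannot be told apart.

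The labels matched the state markers. All 6 EpiLC markers were higher in EpiLCs, with a summed level of 564 to 790.0 TPM per EpiLC library against 19.9 to 22.1 TPM per ESC library. All 8 naive markers were lower, with sums of 258 to 294 TPM in EpiLCs against 1355 to 1457 TPM in ESCs. The endoderm list summed to 8.12 to 11.8 TPM in EpiLCs and 5.24 to 6.30 TPM in ESCs. Dab2 led it (7.12 TPM in EpiLCs and 0.123 TPM in ESCs), while Gata4 fell to 0.773 TPM in EpiLCs, against 3.13 TPM in ESCs, and Gata6 and Sox17 were below the filter with lower means in EpiLCs. The other endoderm genes below the filter were mixed, some with lower and some with higher means in EpiLCs. The primitive streak and mesoderm list summed to 3.54 to 4.47 TPM in EpiLCs and 11.4 to 12.8 TPM in ESCs. The summed trophoblast list was 30.4 to 45.1 TPM in EpiLCs and 88.9 to 97.1 TPM in ESCs, led by Tfap2c, which germ cells also use. Its genes did not all fall, since of the 5 tested 2 were lower, 1 was higher and 2 did not pass. The neural list summed to 58.2 to 70.2 TPM in EpiLCs and 19.6 to 21.7 TPM in ESCs, led by Tubb3. All 4 tested neural genes were higher, with a median log2 fold change of 1.82, and the remaining gene was below the filter with a lower mean in EpiLCs. The late germ cell list was at 110 to 116 TPM in EpiLCs and 83.0 to 108 TPM in ESCs, with Nanos2 at 0 in every library. These sums hide opposite changes, since of its 4 tested genes 3 were higher and 1 was lower. Over all tested genes 36.1% were higher and 30.9% lower. The 2-cell-like list was at 11.7 to 15.4 TPM in EpiLCs and 12.6 to 19.0 TPM in ESCs. Of 7 fibroblast markers, Vim made up most of the sum (86.0 to 98.6 TPM in EpiLCs and 113 to 174 TPM in ESCs), and Thy1, the other member to reach the filter, rose to 11.2 ± 1.58 TPM in EpiLCs, against 3.24 ± 1.05 TPM in ESCs. Vim itself was lower in EpiLCs (log2 fold change -0.84, limma adjusted p = 0.0021). Col1a1 and Col3a1 averaged under 1 TPM in both groups, Col1a1 with a lower and Col3a1 with a higher mean in EpiLCs. The part of other cell types in the PRDM values was not tested.

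The clearest change among the 8 genes was the loss of Prdm14 in EpiLCs. Prdm16 also fell, Prdm4 and Prdm15 rose, and Prdm1, Prdm2 and Prdm10 did not pass the test. Prdm6 was below the 1 TPM filter and was not tested. Of the 7 tested members 2 were higher and 2 were lower, in a comparison where 36.1% of all tested genes were higher and 30.9% lower (66.9% called in all). Their median log2 fold change was 0.13, against 0.04 over all tested genes. In 5 of the 7 the libraries of the groups did not overlap, a condition met by 71.5% of all tested genes. As a group the members were thus close to the background in how many changed. Prdm14 stood far from it in size, since 0.342% of tested genes changed by more, as against 8.96% for Prdm16 and 20.0% for Prdm4.

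**Figure D1:**
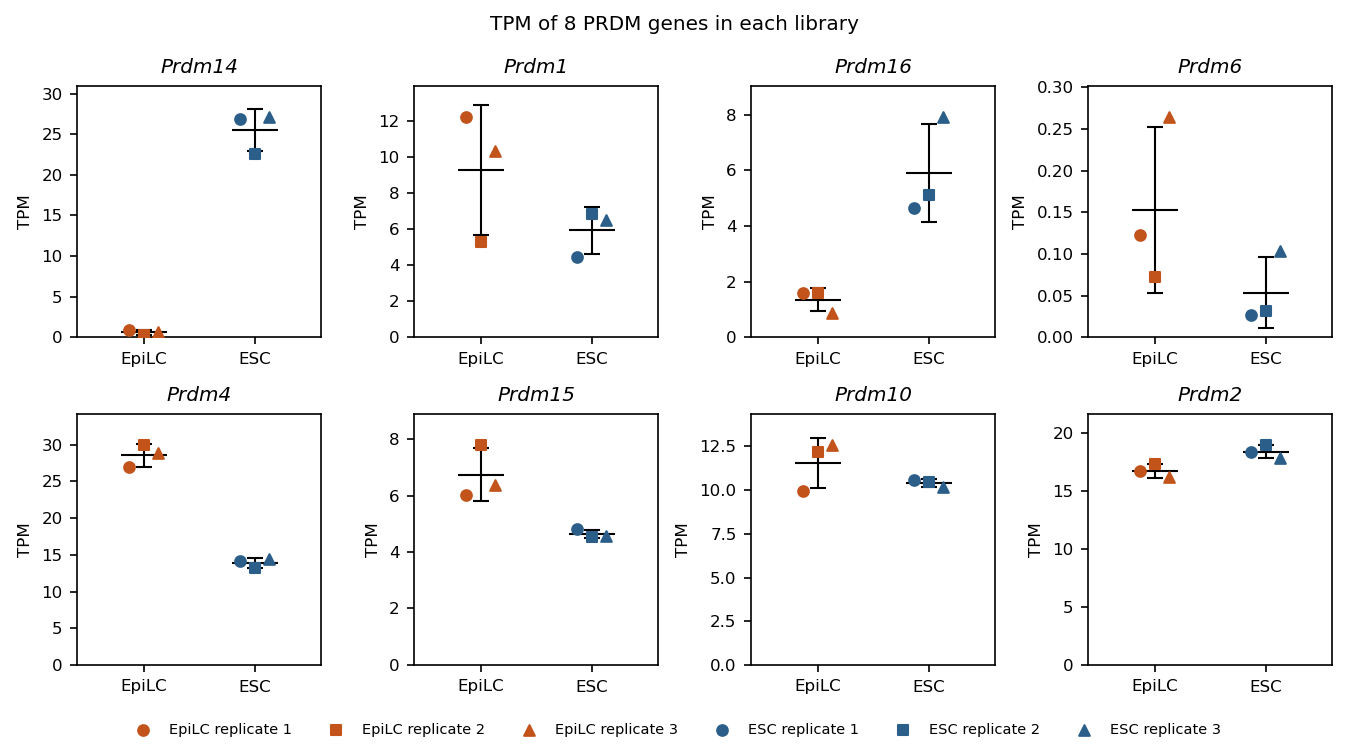
TPM of the 8 PRDM genes in each library, with EpiLCs on the left and ESCs on the right of each panel. Points are single libraries with a symbol for each replicate number, and the dash and bar give the mean and SD of 3 libraries. Each panel has its own linear axis from 0. Prdm14, Prdm16 and, narrowly, Prdm2 are lower in all EpiLC libraries, and Prdm4 and Prdm15 are higher in all of them. The groups overlap for Prdm1, Prdm6 and Prdm10. The change of Prdm2 did not pass the test.

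Prdm14 (ENSMUSG00000042414) encodes a sequence-specific repressor that holds down FGF receptors and de novo DNA methyltransferases in mouse ESCs. It was at 0.824, 0.306 and 0.614 TPM in EpiLC replicates 1, 2 and 3, against 26.9, 22.5 and 27.1 TPM in ESC replicates 1, 2 and 3. All EpiLC libraries lay below 1 TPM, far under every ESC library. The mean was 0.582 ± 0.261 TPM in EpiLCs and 25.5 ± 2.61 TPM in ESCs (SD, n = 3 each), a 43.9-fold lower mean in EpiLCs, and the nearest pair of libraries still differed 27.3-fold. The log2 fold change was -4.08, with an SE of 0.15 and a limma adjusted p of 5.4e-07. This log2 fold change was the 29th lowest of 14036 genes. With a pseudocount of 0.1 in place of 1 it was -5.31.

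Prdm1 (ENSMUSG00000038151) encodes BLIMP1, a repressor of somatic genes in germ cell precursors and of the B cell programme in plasma cells. Its values were 12.2, 5.26 and 10.3 TPM in EpiLC replicates 1 to 3 and 4.46, 6.87 and 6.51 TPM in ESC replicates 1 to 3. EpiLC replicate 2 lay inside the ESC range, and the other two EpiLC libraries lay above it. The change missed the threshold, with a log2 fold change of 0.51 ± 0.28 (SE) and a limma adjusted p of 0.138. Without EpiLC replicate 2 it passed, at a log2 fold change of 0.84 and an adjusted p of 0.0065, and no other of the 15 alternatives changed the call (range of adjusted p 0.0065 to 0.389). EpiLC replicate 2 was also the lowest EpiLC library for Fgf5 (3.61 TPM, against 5.74 and 14.8 TPM in replicates 1 and 3) and Otx2 (22.9 TPM, against 38.1 and 59.5 TPM), both markers of the EpiLC state, and for Prdm14. Of the 6 EpiLC markers it was the lowest EpiLC library for 4, not by a wide margin for all of them. Dnmt3b and Sox3 were lowest in EpiLC replicate 1. How many of all tested genes were lowest in EpiLC replicate 2 was not counted. Some naive markers were lowest in EpiLC replicate 2 as well, and others in EpiLC replicate 1 or 3. The part of either marker list in the Prdm1 values was not tested.

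Prdm16 (ENSMUSG00000039410) encodes a regulator of brown fat identity and of blood and neural stem cells. It was measured at 1.59, 1.58 and 0.885 TPM in EpiLC replicates 1 to 3 and at 4.65, 5.12 and 7.92 TPM in ESC replicates 1 to 3. Every EpiLC library was below every ESC library, and ESC replicate 3 was the highest of its group. The mean fell to 1.35 ± 0.404 TPM in EpiLCs, against 5.90 ± 1.77 TPM in ESCs (SD, n = 3 each), a 4.36-fold lower mean (log2 fold change -1.54, SE 0.21, adjusted p = 3.4e-04 from limma). The antisense gene Gm13134 overlaps Prdm16 in GENCODE M21 and was at 0.0433 ± 0.0377 TPM in EpiLCs and 1.46 ± 0.550 TPM in ESCs. It was highest in ESC replicate 1, at 2.07 TPM, where Prdm16 was lowest among ESCs. The libraries kept strand information, but the sources used here do not give the strand setting of the quantification, so reads of the pair may not be fully separated. None of the other 8 genes overlapping a member in that annotation reached a mean of 1 TPM in either group.

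Prdm6 (ENSMUSG00000069378) encodes a repressor known from smooth muscle. Its level was 0.122, 0.0720 and 0.265 TPM in EpiLC replicates 1 to 3 and 0.0262, 0.0313 and 0.103 TPM in ESC replicates 1 to 3. The groups overlapped, and Prdm6 was the lowest of the 8 genes in each of the 6 libraries. It entered a test in the fit without a TPM filter, where it did not pass (log2 fold change 0.13, limma adjusted p = 0.240). Among smooth muscle markers Tagln and Cnn1 rose in EpiLCs by 2.49 and 3.41 on the log2 scale, while Myh11 and Myocd stayed under 0.1 TPM in every library, and the list summed to 16.2 to 18.8 TPM in EpiLCs and 0.246 to 0.381 TPM in ESCs.

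Prdm4 (ENSMUSG00000035529), also known as SC1, encodes a partner of the arginine methyltransferase PRMT5 in neural stem cells. Its values were 26.9, 30.0 and 28.8 TPM in EpiLC replicates 1 to 3, against 14.1, 13.2 and 14.5 TPM in ESC replicates 1 to 3. The groups were well apart and each was narrow. The mean was 28.6 ± 1.57 TPM in EpiLCs and 13.9 ± 0.663 TPM in ESCs (SD, n = 3 each), 2.05-fold higher in EpiLCs (log2 fold change 0.99, SE 0.07, limma adjusted p = 1.4e-05). Prmt5 itself was higher in EpiLCs by 0.17 in log2 units (limma adjusted p = 0.0067).

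Prdm15 (ENSMUSG00000014039) encodes a regulator that in mouse ESCs activates Rspo1, a Wnt agonist, and Spry1, an inhibitor of ERK signalling. It reached 6.04, 7.81 and 6.37 TPM in EpiLC replicates 1 to 3 and 4.80, 4.54 and 4.56 TPM in ESC replicates 1 to 3. All EpiLC libraries were above all ESC libraries, with EpiLC replicate 2 the highest. The mean was 6.74 ± 0.941 TPM in EpiLCs and 4.63 ± 0.146 TPM in ESCs (SD, n = 3 each), 1.45-fold higher (log2 fold change 0.45, SE 0.11, limma adjusted p = 0.0081). Rspo1 rose by 1.86 and Spry1 by 1.02 on the log2 scale.

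Prdm10 (ENSMUSG00000042496), a gene needed for early mouse development, was at 9.94, 12.2 and 12.6 TPM in EpiLC replicates 1 to 3 and at 10.6, 10.5 and 10.2 TPM in ESC replicates 1 to 3. The groups overlapped through EpiLC replicate 1, the lowest of the 6 libraries, and the difference was not called (log2 fold change 0.13, SE 0.10, limma adjusted p = 0.273). Of its known targets, the translation initiation factor gene Eif3b rose by 0.65 on the log2 scale, and Flcn did not pass (log2 fold change -0.15, limma adjusted p = 0.086).

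Prdm2 (ENSMUSG00000057637), also known as RIZ, encodes a retinoblastoma-binding protein with a form that methylates histone H3 lysine 9. Its values were 16.7, 17.4 and 16.2 TPM in EpiLC replicates 1 to 3, just below the 18.4, 19.0 and 17.9 TPM of ESC replicates 1 to 3. The groups did not overlap, yet the small difference did not pass (log2 fold change -0.13, SE 0.07, limma adjusted p = 0.129). It passed with median-of-ratios scaling, at a log2 fold change of -0.18 and an adjusted p of 0.046 (range over 15 alternatives 0.046 to 0.277).

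**Figure D2:**
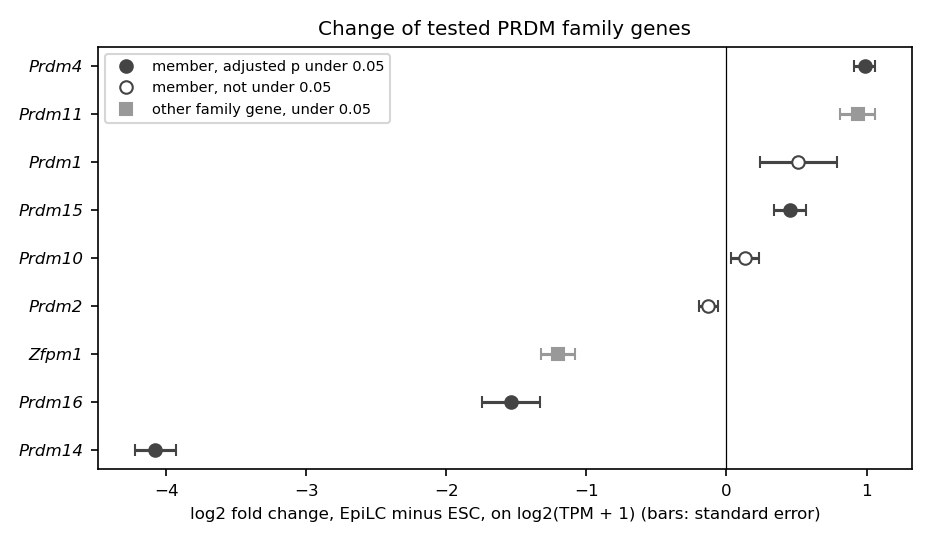
Change of tested PRDM family genes, EpiLC minus ESC after log2(TPM + 1), with standard errors from limma. Circles are the members described here and squares other genes of the family, and filled symbols have an adjusted p under 0.05. Prdm14 lies at -4.08 and Prdm16 at -1.54, while no gene shown rose by more than the 0.99 of Prdm4.

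Of these genes, Prdm15 and Prdm16 have a RefSeq promoter window free of GENCODE M21 exons among the members that passed the test, and their 250 bases before the outermost listed start are shown as examples of a member that rose and one that fell. Capitals mark CpG dinucleotides, the target of the DNA methyltransferases that rose in EpiLCs. Sequences run 5′ to 3′ on the minus strand, at chr16:97851851-97852100 for Prdm15 and chr4:154636874-154637123 for Prdm16 in GRCm38.p6, which is not the build the authors used.
Prdm15: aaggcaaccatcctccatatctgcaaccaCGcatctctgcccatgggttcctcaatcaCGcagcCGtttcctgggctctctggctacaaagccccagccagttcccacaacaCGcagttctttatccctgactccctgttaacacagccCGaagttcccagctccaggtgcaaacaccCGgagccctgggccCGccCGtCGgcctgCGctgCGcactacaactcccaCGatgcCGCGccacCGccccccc
Prdm16: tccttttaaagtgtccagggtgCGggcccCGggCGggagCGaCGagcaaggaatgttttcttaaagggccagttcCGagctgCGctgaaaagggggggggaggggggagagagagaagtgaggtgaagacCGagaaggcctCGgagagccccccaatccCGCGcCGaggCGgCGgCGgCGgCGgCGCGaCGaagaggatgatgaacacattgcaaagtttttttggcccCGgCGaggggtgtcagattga
The Prdm15 window holds 15 CpGs and the Prdm16 window 22, against a median of 6 over 32851 windows of the same length, of which 72.7% have fewer than the Prdm15 window and 85.2% fewer than the Prdm16 window. A further Prdm15 window, at chr16:97851228-97851477, belongs to a start further downstream and holds 30 CpGs, more than 94.1% of windows. All 3 windows were richer in CpG than the median window. Whether CpG content bears on the rise of Prdm15 or the fall of Prdm16 was not tested. No methylation was measured here.

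The order of the levels differed between the states. In EpiLCs it ran, from the highest mean, Prdm4, Prdm2, Prdm10, Prdm1, Prdm15, Prdm16, Prdm14 and Prdm6. Over the EpiLC libraries Prdm10 overlapped Prdm1 and Prdm1 overlapped Prdm15, and the other neighbours in this order did not overlap. In ESCs the order was Prdm14, Prdm2, Prdm4, Prdm10, Prdm1, Prdm16, Prdm15 and Prdm6, where Prdm1 overlapped Prdm16 and Prdm16 overlapped Prdm15. Prdm14 moved furthest in this order, being the highest member in ESCs and the seventh in EpiLCs. The coefficient of variation within a group was 3.57% in EpiLCs and 3.17% in ESCs for Prdm2, the steadiest in EpiLCs, and 38.9% and 21.9% for Prdm1. Prdm16 varied by about the same share in both states, 29.9% in EpiLCs and 30.0% in ESCs.

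The summed level of the 8 genes was 74.4, 74.6 and 76.0 TPM in EpiLC replicates 1 to 3 and 83.9, 81.7 and 88.7 TPM in ESC replicates 1 to 3. Prdm14 made up 0.776 ± 0.350% of that sum in EpiLCs and 30.1 ± 2.31% in ESCs (SD, n = 3 each). Prdm4 made up 38.1 ± 2.04% in EpiLCs and 16.4 ± 0.342% in ESCs, becoming the largest contributor. The share of Prdm2 was 22.3 ± 1.02% in EpiLCs and 21.8 ± 1.58% in ESCs. Without Prdm14 the other 7 genes summed to 74.4 ± 0.958 TPM in EpiLCs and 59.3 ± 2.30 TPM in ESCs. These sums and shares are descriptions and were not tested.

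**Figure D3:**
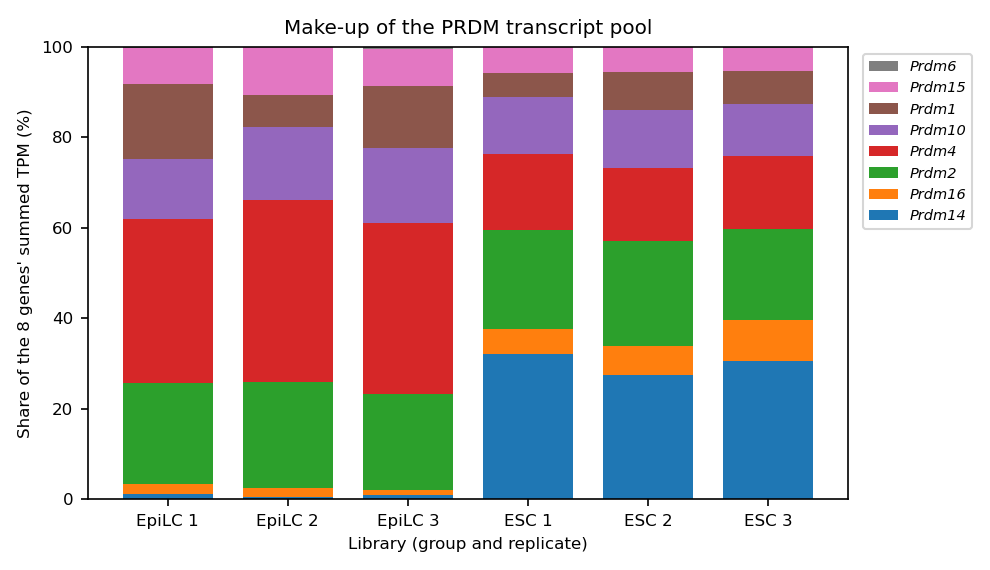
Share of each gene in the summed TPM of the 8 PRDM genes, as stacked bars for 3 EpiLC libraries (left) and 3 ESC libraries (right). Prdm14 takes 27.5% to 32.1% of the sum in ESC libraries and at most 1.11% in EpiLC libraries, where Prdm4 takes 36.2% to 40.2%.

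Of 15 PRDM genes, counting Mecom (also called Prdm3), 9 reached the filter, as did 14036 of the 78298 genes of the table. The table includes noncoding genes and pseudogenes, and 41623 of its genes were at 0 in every library, so the shares are not like for like. Of the 9 PRDM genes 4 rose, 2 fell and 3 did not pass, where 36.1% of all tested genes were higher and 30.9% lower. Prdm11 rose to 2.65 ± 0.290 TPM in EpiLCs, against 0.907 ± 0.0894 TPM in ESCs (log2 fold change 0.94, limma adjusted p = 2.8e-04). Prdm9, which marks meiotic recombination sites, was at 0.858, 0.879 and 1.07 TPM in EpiLCs and 0.497, 0.696 and 0.575 TPM in ESCs, below the filter. Mecom, Prdm8, Prdm12 and Prdm13 were weaker still, the highest value being the 0.287 TPM of Mecom in EpiLC replicate 2. The FOG genes Zfpm1 and Zfpm2 are sometimes grouped with the family, and Zfpm1, a GATA cofactor gene, fell by 1.20 on the log2 scale while Zfpm2 reached at most 0.129 TPM.

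Genes known to be held down by PRDM14 in mouse ESCs were higher in EpiLCs. All 5 of this list rose, by a median of 4.32 on the log2 scale, against 36.1% higher and a median of 0.04 over all tested genes. Dnmt3b rose by 5.09, Dnmt3l by 4.44 and Dnmt3a by 4.32. Dnmt3b and Dnmt3l are also among the EpiLC markers above, a list with a median of 3.87. The list was chosen with earlier results of these data known, so its rise is not independent of the marker check. The FGF receptor gene Fgfr2 was at 11.1, 8.50 and 8.04 TPM in EpiLC replicates 1 to 3 and at 0.970, 0.935 and 1.24 TPM in ESC replicates 1 to 3 (log2 fold change 2.31, SE 0.14, limma adjusted p = 5.7e-06). Fgfr1 was at 61.3, 69.3 and 56.7 TPM in EpiLCs and 30.3, 37.2 and 32.7 TPM in ESCs, higher in EpiLCs by 0.88 on the log2 scale (SE 0.10, adjusted p = 1.2e-04 from limma). The receptors did not overlap between groups, and Fgfr1 was the more abundant in both states. Whether the loss of Prdm14 bears on these genes was not tested.

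Of 13 tested genes for the partners of PRDM14, CBFA2T proteins and PRC2 subunits, 4 were higher and 5 lower, with a median log2 fold change of 0.08. These counts are near the shares over all tested genes, 36.1% higher and 30.9% lower. Among the calls counted, that of the core subunit gene Suz12 was lost in 5 of 15 alternatives (range of limma adjusted p 0.012 to 0.102). The PRC2 cofactor gene Jarid2 rose by 0.82 and the core subunit gene Eed fell by 0.65, while Aebp2, another PRC2 cofactor gene, fell by 0.50. Runx1t1 rose by 0.51 (limma adjusted p = 0.020), a call lost in 5 of 14 alternatives (range 0.0075 to 0.067). Cbfa2t2, whose protein binds PRDM14 directly and which was picked out after its values were seen, was at 43.6 ± 2.56 TPM in EpiLCs and 49.8 ± 3.36 TPM in ESCs (log2 fold change -0.19, limma adjusted p = 0.047). That call was lost in 8 of 15 alternatives (range 0.027 to 0.142).

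Of 10 tested genes linked to primordial germ cell specification, 5 fell, 2 rose and 3 did not pass (median log2 fold change -0.51). Over all tested genes 30.9% were lower and 36.1% higher. The list mixes genes of the inducing signals with markers of germ cells, and not all of its genes are known to act with Prdm1 or Prdm14. The receptor gene Kit fell by 2.61, the transcription factor gene Tfap2c by 2.40 on the log2 scale. Nanos3 fell by 1.44 and Ifitm3 by 1.38. Bmp8b, a ligand gene of the germ cell inducing signal, rose to 2.14 ± 0.223 TPM in EpiLCs, against 0.133 ± 0.0690 TPM in ESCs (log2 fold change 1.47, limma adjusted p = 3.5e-05). Wnt3 and the brachyury gene T were below the filter, Wnt3 at 0.864 to 1.08 TPM in EpiLCs and 0.0775 to 0.0898 TPM in ESCs, and T at 0.330 to 0.401 TPM in EpiLCs and 0.860 to 1.00 TPM in ESCs. Of the 5 lower calls, that of Dppa3 (limma adjusted p = 0.049) was lost in 9 of 15 alternatives (range 0.0017 to 0.152), without any 1 library other than ESC replicate 2 among them.

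Co-repressors of PRDM1 changed in both directions, 6 of 9 tested rising and 3 falling (median log2 fold change 0.26), against 36.1% higher and 30.9% lower over all tested genes. Within the Groucho family Tle4 rose by 1.31 and Tle1 by 0.51, while Tle3 fell by 1.24. Wdr77, which encodes the partner of PRMT5, rose by 0.44. The falls of Hdac1 and Hdac2 were small (log2 fold change -0.12 and -0.17), and their calls were lost in 9 and 6 of 15 alternatives, with ranges of adjusted p of 0.014 to 0.130 and 0.011 to 0.092. Of 6 genes that PRDM1 represses in B cells, 2 reached the filter and moved apart, Myc rising by 5.14 and Bcl6 falling by 1.22. The others were below the filter and not tested, and most of them, not all, had a higher mean in EpiLCs.

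Of 8 co-repressor and cofactor genes of PRDM16 and MECOM, 7 rose and none fell at the threshold (median log2 fold change 0.62), against 36.1% higher and 30.9% lower over all tested genes, while Prdm16 itself fell. The call of Ncor1, 1 of the 7, was lost in 3 of 15 alternatives (range of limma adjusted p 0.0066 to 0.065). Skil rose by 2.43 on the log2 scale, Ctbp2 by 0.94, Ctbp1 by 0.71 and Ski by 0.66. Among 6 histone H3 lysine 9 methyltransferase genes outside the family, 5 rose and 1 fell (median log2 fold change 0.32), beside the same shares of all tested genes. Ehmt1 rose by 1.10, Suv39h2 by 0.91 and Ehmt2 by 0.32, and Setdb2 fell by 0.32 with a call lost in 3 of 15 alternatives (range of adjusted p 0.012 to 0.081). That of Suv39h1 was lost in 6 of 15 (range 0.010 to 0.110).

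**Figure D4:**
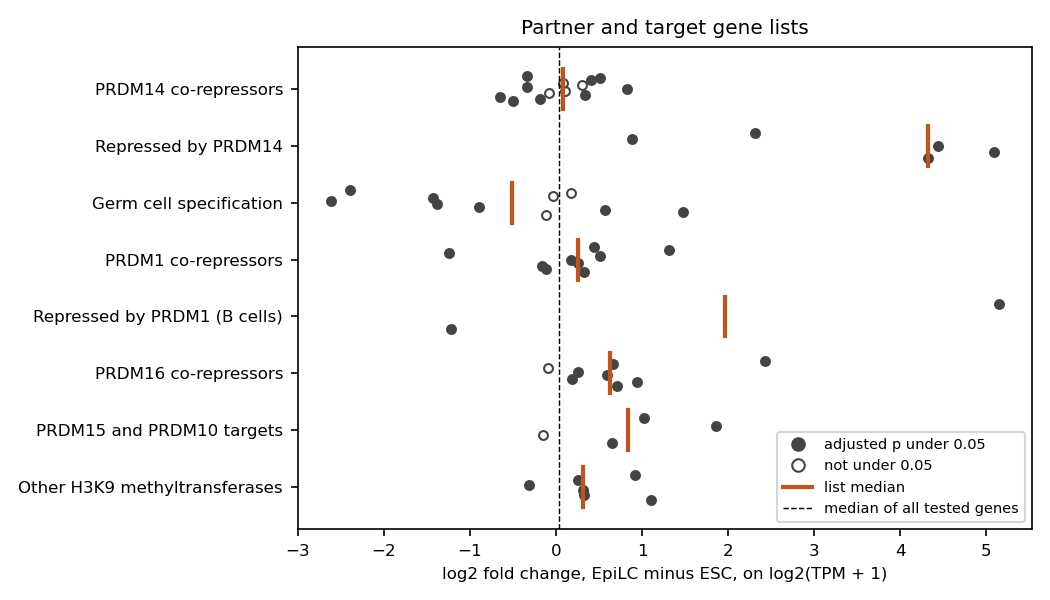
Log2 fold changes, EpiLC minus ESC on log2(TPM + 1), of the tested genes in 8 partner and target lists, with 1 point per gene. Filled points have an adjusted p under 0.05, the orange line is the list median and the dashed line the median of all tested genes (0.04). The list of genes repressed by PRDM14 has the highest median, 4.32, and that of germ cell specification the lowest, -0.51.

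The genes whose profile over the 6 libraries was most like that of a member were found by the root-mean-square difference of mean-centred log2(TPM + 1) values among 11914 named tested genes. For Prdm14 they were Spp1 (0.14), which encodes osteopontin, Ubd (0.14), which encodes a ubiquitin-like protein, and Lrrc31 (0.15). All 3 were lower in every EpiLC library, Spp1 at 58.5 ± 15.6 TPM in EpiLCs and 969 ± 79.3 TPM in ESCs, Ubd at 0.0817 ± 0.0622 TPM in EpiLCs and 16.6 ± 3.31 TPM in ESCs, and Lrrc31 at 1.12 ± 0.290 TPM in EpiLCs and 41.0 ± 1.83 TPM in ESCs. For Prdm16 they were the mitochondrial peptidase gene Immp2l (0.13), the naive marker Zfp42 (0.13) and the transcription factor gene Zeb1 (0.14). On the log2 scale Immp2l fell by 1.62, Zfp42 fell by 1.62 and Zeb1 fell by 1.53. With libraries in 2 groups, such likeness mostly reflects the size of the difference between groups.

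Of the 16 nearest protein-coding genes on either side of the members, 13 were tested, 4 being higher and 7 lower, against 36.1% higher and 30.9% lower over all tested genes. Beside Prdm14, Ncoa2 was at 14.3 ± 1.27 TPM in EpiLCs and 16.1 ± 0.722 TPM in ESCs without passing the test (limma adjusted p = 0.121), and Slco5a1 was at 0.368 ± 0.0650 TPM in EpiLCs and 0.780 ± 0.0739 TPM in ESCs, below the filter. Beside Prdm16, Arhgef16 rose by 0.71 on the log2 scale and Actrt2 was at 0 in every library. Pwp1 rose by 0.19 beside Prdm4, where Ascl4 was below the filter, and beside Prdm15 Ripk4 rose by 0.64 while C2cd2 fell by 0.78. The neighbours of Prdm1 fell, Atg5 by 0.27 and Prep by 0.28, as did those of Prdm2, Kazn by 1.61 and Pdpn by 0.75. Aplp2 fell by 0.53 beside Prdm10, where Nfrkb did not pass (limma adjusted p = 0.067), and beside Prdm6 Ppic fell by 1.15 and Cep120 rose by 0.31. Of the called neighbours beside a member that passed the test, Pwp1 and Ripk4 moved in its direction, and C2cd2 and Arhgef16 moved against it. The other called neighbours lay beside members that did not pass or were not tested.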

How the data were processed

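RNA sequencing values of 3 EpiLC and 3 ESC libraries were read from 1 table of TPM deposited by the authors, with 1 column per library, each summing to 1000000, and 78298 genes. FastQC, Trim Galore, STAR, Salmon and the build mm39/GRCm39 are named per the submitters' processing notes, with no versions. The annotation release, the strand setting and how transcripts became genes are not stated there. A tag in the column names, 0uM, has no explanation in the labels. Columns were matched to samples by group and replicate number. TPM holds no counts, so no count model was used, and each library had 13610 to 13983 genes at 1 TPM or more.

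Values were transformed as log2(TPM + 1). Genes with a mean of at least 1 TPM over the 6 libraries (14036) were tested with limma 3.58.1 in R 4.3.3 (lmFit and trended eBayes, two-sided), and p-values were adjusted by Benjamini-Hochberg over all of them. The code was tested on simulated data. Members, lists and the rule for named genes (up to 4 called genes with the largest change per list, the largest in the minority direction, the most alike profiles and neighbours) were chosen with earlier results of these data known. Some genes that the lists count are not reported here by name or shown in the plot of family changes. Gene order and overlaps came from GENCODE M21 (GRCm38), and promoter sequences from RefSeq (GRCm38.p6), where 5 of 8 members matched. Neither is the authors' build. Python 3.11.15, pandas 2.3.3 and matplotlib 3.10.9 were used for tables and plots. Alternatives were other pseudocounts (0.1 and 0.5), other TPM filters, median-of-ratios and quantile scaling, no variance trend, sample weights, a replicate block and leaving out each library.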

Additional observations from a re-analysis of the deposited data

How the results depend on the processing

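The calls of Prdm4, Prdm14, Prdm15 and Prdm16 kept their direction and stayed past the threshold in every alternative that could test them (15 each, and 14 for Prdm16), with highest adjusted p of 1.6e-04, 1.9e-05, 0.027 and 0.0027 from limma. With genes of at least 5 TPM, Prdm16 was not tested and 1 member was lower. Prdm1 passed without EpiLC replicate 2 (log2 fold change 0.84), and over the 6 fits that left out 1 library its change ran between 0.30 and 0.84. Prdm2 passed with median-of-ratios scaling (-0.18), a setting that moved the median of all genes to -0.0069 (0.037 without it) and gave 4696 higher and 4663 lower genes. The number of higher members was 2 or, without EpiLC replicate 2, 3, and that of lower members 1 to 3. Same-numbered libraries deviated together with correlations across genes of 0.102, 0.142 and 0.065, and each library correlated best with its own number. The main fit was designed without a replicate block and did not use such pairing. A replicate block called 9612 genes in place of 9397 and changed the call of no member (Prdm1 log2 fold change 0.51, adjusted p = 0.156). The depth behind TPM is unknown, so how precisely values under 1 TPM, such as Prdm14 in EpiLCs and Prdm6, were measured cannot be given.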
